A study of Mus musculus with 6 samples.

Results

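Podocytes are the epithelial cells that wrap the capillaries of the glomerulus, and the slit diaphragm is the cell junction that bridges their interlocking foot processes. Nephrin and its relatives form the extracellular part of this junction, adaptor proteins tie it to actin, a negatively charged surface coat keeps the foot processes apart, and the transcription factor WT1 maintains the identity of the cell. In a whole kidney podocytes are a small minority beside tubular epithelium, so their transcripts also follow how much glomerulus a piece of tissue holds. The 8 genes described here are Nphs1, Kirrel and Cd2ap, whose products belong to the slit diaphragm, Podxl and Ptpro of the apical surface, Synpo of the actin cytoskeleton, and Wt1 and Cdkn1c of the nucleus. They were chosen by name, each matched 1 row of the deposited tables of 54532 genes, and all 8 passed the filter on low counts that left 15816 genes for testing. The set is therefore one of podocyte genes, of which only the 3 named first code for slit diaphragm proteins.

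RNA was sequenced from kidneys of 3 WT and 3 Trpm2-/- mice (labelled TRPM2-KO) on the C57BL/6J background. All of them had received cisplatin, a platinum drug that injures renal tubules, at 18 mg/kg for 72 h, so each comparison is between genotypes under treatment. The labels give an age of 6 to 8 weeks, whereas the methods describe older males. By the methods, the mutant allele lacks exons that encode part of the transmembrane region of TRPM2, a calcium-permeable cation channel, in every cell of the animal. The labels number the kidneys 1, 2 and 3 (WT) and 1, 2 and 4 (Trpm2-/-) without saying how each was cut, or that each came from a separate animal, so the p-values measure only the spread between these libraries.

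Libraries held between 14053307 and 17150089 counts on genes, and 3 counts, the smallest number taken as detectable, correspond to 0.184 to 0.205 CPM (the usual count unit scaled to library size, here after TMM normalization). These limits cover counting error only. Trpm2 itself had 5, 5 and 27 counts in WT and 10, 16 and 20 counts in Trpm2-/- libraries, and because counts cover the exons that remain in the allele, they do not check the genotype labels. All 10 markers of the proximal tubule were detected, as the label of kidney implies. Genes of the mitochondrial genome took 4.43% to 4.72% of counts in WT, 7.91% and 7.95% in Trpm2-/- kidneys 1 and 2, and 11.04% in Trpm2-/- kidney 4.

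The library of Trpm2-/- kidney 4 stood apart for the podocyte genes. It had the highest level of all 6 libraries for 8 of 8 genes, where 19.2% of all genes tested were highest in this library. For 6 of the 8, namely Nphs1, Kirrel, Podxl, Ptpro, Synpo and Wt1, it lay at least 2-fold above every other library, which held for 0.879% of all genes tested. The mean over the 8 genes of log2 CPM, centred for each gene over the 6 libraries, was 1.35 in this kidney. It was -0.15 and -0.34 in Trpm2-/- kidneys 1 and 2, and -0.13, -0.55 and -0.17 in WT kidneys 1, 2 and 3. The other 2 Trpm2-/- kidneys thus lay within the WT range. The genotype difference of each of the 8 genes is given below with and without kidney 4.

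**Figure D1:**
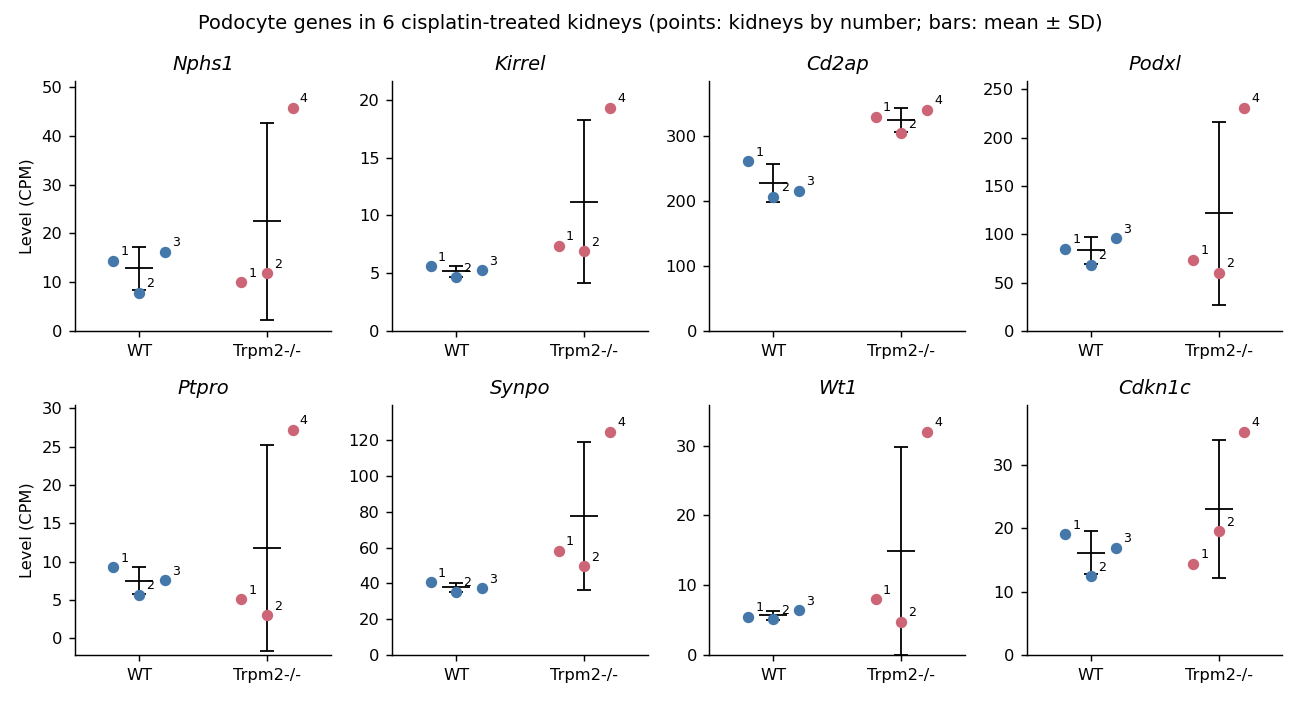
Level of each of the 8 podocyte genes (CPM, linear axes, starting at 0 or, where an error bar reaches below it, just under 0) in the kidneys of WT (blue) and Trpm2-/- (red) mice. Points are kidneys with their numbers, and bars are the mean ± SD of 3. Trpm2-/- kidney 4 is the top point of every panel, by a wide margin in all but Cd2ap and Cdkn1c.

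Across all 6 kidneys only Cd2ap was called different, and it was higher in Trpm2-/- kidneys, where a call means a Benjamini-Hochberg adjusted p below 0.05 from the quasi-likelihood test of edgeR. That is 1 of 8 genes, beside 4.74% of all genes tested, while DESeq2 called 3 higher (Cd2ap, Kirrel and Synpo) and limma-voom 1. None of the 8 was called lower (0 at an adjusted and 0 at an unadjusted p under 0.05, and 0 by DESeq2 and limma-voom), beside 7.28% of all genes. At the threshold of the methods, an absolute log2 fold change above 1 with an unadjusted p under 0.05, Kirrel, Synpo and Wt1 were called higher, 3 of 8 genes beside 3.5% of all genes, and 0 were called lower (background 4.1%). The median log2 fold change of the 8 was 0.73, against 0.02 for all genes tested. Without Trpm2-/- kidney 4 this median was 0.13, 0 genes passed an adjusted p under 0.05 in either direction (background 4.81% higher and 6.34% lower), and 2 higher and 1 lower gene had an unadjusted p under 0.05. All 3 Trpm2-/- kidneys lay above all 3 WT kidneys for Kirrel, Cd2ap and Synpo, 3 of 8 genes, where 16.7% of all genes tested showed this order, and the reverse order was found for 0 of 8 (background 16.8%).

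**Figure D2:**
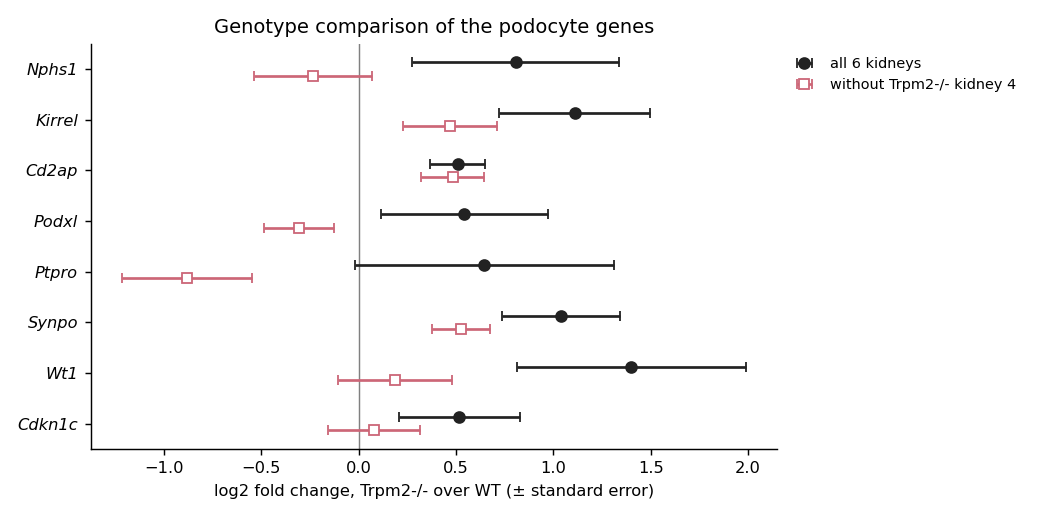
Log2 fold change of each podocyte gene, Trpm2-/- over WT, with its standard error, from edgeR on all 6 kidneys (filled circles) and without Trpm2-/- kidney 4 (open squares). Cd2ap stays near 0.5 in both fits, whereas Nphs1, Podxl and Ptpro lie above 0 with kidney 4 and below 0 without it.

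Nphs1 (chromosome 7, 30458315 to 30487223 of GRCm38, plus strand) encodes nephrin, the adhesion protein that spans the slit. It had 14.4, 7.90 and 16.3 CPM in WT kidneys 1, 2 and 3, and 9.98, 11.8 and 45.7 CPM in Trpm2-/- kidneys 1, 2 and 4. The first 2 Trpm2-/- values lay inside the WT range and the last was 2.81 times the highest of the other 5. Over all kidneys the log2 fold change was 0.81 ± 0.531 (standard error; 95% interval -0.38 to 2.00, adjusted p = 0.360, edgeR). Without kidney 4 it was -0.23 ± 0.302 (adjusted p = 0.664, edgeR), so the sign of the difference rested on that kidney. Of the 75-base windows of Nphs1 transcripts, 6.77% also occur in transcripts of other genes, among them Rps12 and several of its pseudogenes.

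Kirrel (chromosome 3, 87078593 to 87174747, minus strand) encodes NEPH1, the partner that binds nephrin across and along the slit. Its level was 5.61, 4.69 and 5.28 CPM in WT and 7.41, 6.90 and 19.3 CPM in Trpm2-/- kidneys. The genotypes did not overlap, but the gap between the highest WT and the lowest Trpm2-/- kidney was small beside the distance to kidney 4. Its log2 fold change of 1.11 ± 0.386 (95% interval 0.24 to 1.97) had an adjusted p of 0.0929 in edgeR, and without kidney 4 it was 0.47 ± 0.240 (adjusted p = 0.239). DESeq2 called the difference over all kidneys (adjusted p = 0.0286).

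Cd2ap (chromosome 17, 42792951 to 42876665, minus strand) encodes an adaptor that links nephrin to actin and endocytosis, and unlike nephrin it is also made by many other cells, tubular epithelium included. It had 261, 206 and 216 CPM in WT and 329, 303 and 339 CPM in Trpm2-/- kidneys. Here all Trpm2-/- kidneys were above all WT kidneys, and kidney 4 was only 1.03 times the next highest library. Cd2ap rose by 0.51 on the log2 scale (standard error 0.141, 95% interval 0.19 to 0.83, adjusted p = 0.0460, edgeR), from 228 ± 29.2 to 324 ± 18.6 CPM (SD, n = 3). The size held without kidney 4 (0.48, standard error 0.160), but the adjusted p was then 0.0873, and the call was likewise lost without WT kidney 2 (adjusted p = 0.207), WT kidney 3 (0.214) or Trpm2-/- kidney 1 (0.0868) in edgeR. Over the other normalizations, filters and tests, the adjusted p was between 0.00888 and 0.0473. This range leaves out the fit with replicate number as a block, where the call was lost (0.45, adjusted p = 0.220, edgeR).

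Podxl (chromosome 6, 31519488 to 31563981, minus strand) encodes podocalyxin, the sialylated mucin of the foot process surface, which endothelial cells carry too. It had 85.5, 68.9 and 96.1 CPM in WT kidneys and 74.0, 60.3 and 231 CPM in Trpm2-/- kidneys. Trpm2-/- kidney 2 was the lowest and kidney 4 the highest of the 6, and the genotype difference of 0.54 ± 0.429 (log2 scale, adjusted p = 0.450, edgeR) became -0.30 ± 0.180 (adjusted p = 0.313) without kidney 4.

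Ptpro (chromosome 6, 137252319 to 137463233, plus strand) encodes GLEPP1, a receptor tyrosine phosphatase of the podocyte surface with forms in blood cells as well. Its level was 9.25, 5.72 and 7.61 CPM in WT kidneys, against 5.08, 3.00 and 27.2 CPM in Trpm2-/- kidneys. Kidneys 1 and 2 lay below every WT kidney and kidney 4 lay 2.94 times above the highest. This was the widest split among Trpm2-/- kidneys, with kidney 4 at 6.73 times the mean of kidneys 1 and 2. Its log2 fold change was 0.65 ± 0.666 (95% interval -0.85 to 2.14, adjusted p = 0.572, edgeR), and -0.88 ± 0.333 (adjusted p = 0.123) without kidney 4.

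Synpo (chromosome 18, 60593973 to 60660142, minus strand) encodes synaptopodin, an actin-bundling protein of foot processes. It had 40.6, 35.3 and 37.3 CPM in WT kidneys and 58.3, 49.5 and 125 CPM in Trpm2-/- kidneys. The genotypes did not overlap, and the WT kidneys were close together (37.7 ± 2.68 CPM, SD, n = 3). Its genotype difference of 1.04 ± 0.303 on the log2 scale (95% interval 0.36 to 1.72) came close to the threshold without passing it (adjusted p = 0.0537, edgeR). Without kidney 4 the difference was smaller, 0.53 ± 0.149, at nearly the same adjusted p of 0.0552. In DESeq2 the difference over all kidneys passed (adjusted p = 0.00483).

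Wt1 (chromosome 2, 105126529 to 105173616, plus strand) encodes the zinc finger factor WT1, which activates many podocyte genes and is also made by mesothelium. Its level was 5.49, 5.08 and 6.38 CPM in WT kidneys and 7.96, 4.78 and 32.0 CPM in Trpm2-/- kidneys. Kidney 4 exceeded the highest other library 4.02 times, the largest such ratio among the 8 genes. With kidney 4 the log2 fold change was 1.40 ± 0.587 (adjusted p = 0.153, edgeR), and without it 0.19 ± 0.292 (adjusted p = 0.725). The mesothelial marker Msln had 6.60, 0.45 and 2.94 CPM in WT and 1.90, 1.78 and 1.81 CPM in Trpm2-/- kidneys. Upk3b, another, had 8.20, 0.71 and 3.07 CPM in WT and 0.37, 0.68 and 2.24 CPM in Trpm2-/- kidneys, so that kidney 4 was above the other 2 Trpm2-/- kidneys and WT kidney 2 but below WT kidneys 1 and 3, and Lrrn4 and Muc16 had 0 counts in kidney 4. The summed level of the 5 mesothelial markers was 76.7 to 101 CPM in WT and 43.4 to 61.1 CPM in Trpm2-/- kidneys, nearly all of it Gpm6a (73.8 to 94.4 and 40.7 to 58.8 CPM). Their part in the Wt1 values was not tested.

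Cdkn1c (chromosome 7, 143458339 to 143461050, minus strand) encodes p57, a cyclin-dependent kinase inhibitor found in mature podocytes that have left the cell cycle. It had 19.1, 12.4 and 16.9 CPM in WT and 14.4, 19.6 and 35.3 CPM in Trpm2-/- kidneys, with overlap between genotypes. A genotype difference of 0.52 ± 0.309 (log2 scale, adjusted p = 0.310, edgeR) was 0.08 ± 0.234 (adjusted p = 0.865) without kidney 4. In its transcripts 22.06% of 75-base windows also lie in Gm44732, an antisense gene with 0 counts in all 6 libraries. Whether the counting used strand is not given in the sources used here, so reads of that pair cannot be told apart. Cdkn1c is strongly expressed in adrenal cortex as well, and of the 8 adrenal markers Nr5a1 had 0 counts in every library, Cyp11b1 and Cyp11b2 had 0 counts in kidney 4, and the summed level was 4.32 to 6.13 CPM in WT and 3.61 to 5.26 CPM in Trpm2-/- kidneys.

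Levels of different genes were compared per length, on the FPKM values that the authors deposited. In WT kidneys Podxl (13.3 ± 2.16 FPKM, SD, n = 3) and Cd2ap (12.6 ± 1.64 FPKM) were highest and did not differ beyond their spread. Cdkn1c followed with 6.92 ± 1.46 FPKM and Synpo with 3.46 ± 0.251 FPKM, each apart from its neighbours in every kidney. The ranges of Nphs1 (1.70 ± 0.578 FPKM), Ptpro (0.979 ± 0.231 FPKM) and Wt1 (0.797 ± 0.0921 FPKM) over kidneys overlapped from one to the next. Within each of the 3 kidneys, however, the 3 genes kept this order. Kirrel was lowest at 0.609 ± 0.0551 FPKM, below Wt1 in each of the 3 kidneys. In Trpm2-/- kidneys the SD was as large as 15.4 FPKM around a mean of 19.6 FPKM for Podxl and 2.14 FPKM around 2.13 FPKM for Wt1, with kidney 4 far above the other 2.

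Proportions among the 8 genes were also described within each library, as the log2 CPM of a gene minus the mean log2 CPM of the other 7. On this scale Kirrel was higher in Trpm2-/- kidneys 1, 2 and 4 (-1.81, -1.70 and -1.96) than in WT kidneys 1, 2 and 3 (-2.28, -2.09 and -2.33), with no overlap. Podxl was lower, with 1.96, 1.84 and 2.12 against 2.17, 2.30 and 2.42, again with no overlap. For each of the other genes the genotypes overlapped. No share over all genes was computed on this scale. On the CPM scale 16.7% of all genes tested had all Trpm2-/- kidneys above all WT kidneys, and 16.8% the reverse. Ptpro was low in Trpm2-/- kidneys 1 and 2 (-2.42 and -3.04) but not in kidney 4 (-1.40), where WT kidneys had -1.48, -1.77 and -1.74. Nphs1 ranged from -1.25 to -0.50 in WT and from -1.32 to -0.54 in Trpm2-/- kidneys. These differences were not tested, since they depend on one another and the high level of Cd2ap outside podocytes enters each mean.

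The other podocyte genes were taken from lists compiled from general knowledge. Of 56 genes, 53 were tested, 8 were called higher (adjusted p under 0.05, edgeR; 4.74% of all genes) and 0 lower (7.28% of all genes; 1 at an unadjusted p under 0.05, and 0 by DESeq2 and by limma-voom). The genes called higher were Tjp1, Fat1 and Nck2 among slit diaphragm partners, Inf2, Myo1e, Itga3 and Nes among actin and adhesion genes, and Lama5 of the basement membrane. Apart from Nes, where kidney 4 was 1.08 times the next highest library, none of them was highest in kidney 4. Most of these genes are known to be active in tubular or interstitial cells too. Among them Itga3, the laminin-binding integrin subunit, had 236, 136 and 147 CPM in WT and 316, 423 and 282 CPM in Trpm2-/- kidneys (log2 fold change 0.98 ± 0.234, adjusted p = 0.0279, edgeR). Fat1, a giant cadherin, rose by 0.84 (adjusted p = 0.0182) and Lama5, a laminin chain, by 0.65 on the log2 scale (adjusted p = 0.0218, edgeR). These 3 were also called without kidney 4 (adjusted p = 0.0265, 0.0169 and 0.0392). Of the abundant genes that did not pass, Iqgap1, Ezr and Myh9, which organise cortical actin, had log2 fold changes of 0.51, 0.36 and 0.54 (adjusted p = 0.0605, 0.158 and 0.0830, edgeR), and Pard3, a polarity protein that binds nephrin, had -0.06 (adjusted p = 0.836). Without kidney 4, 6 genes of these lists were called higher (4.81% of all genes) and 1 lower (6.34% of all genes), the latter being Slc9a3r2 (-0.83, adjusted p = 0.0228), the podocalyxin-binding scaffold NHERF2. In the fit of all kidneys Slc9a3r2 had a log2 fold change of -0.08 (adjusted p = 0.925).

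Most genes of the list of other podocyte-enriched genes were highest in kidney 4, as Nphs1 was. Of 9 such genes, 8 were highest in kidney 4 (19.2% of all genes) and 5 were at least 2-fold above every other library (0.879% of all genes). These 5 were Nebl (5.49 times), Pla2r1 (3.56), Thsd7a (3.29), Robo2 (2.62) and Srgap1 (2.53). Pla2r1 and Thsd7a encode the main autoantigens of membranous nephropathy. The most abundant of the 9, Ildr2 and Rhpn1, had ratios of 0.68 and 1.02 and log2 fold changes of -0.01 and 0.48 (adjusted p = 0.984 and 0.0764, edgeR). None of the 9 passed an adjusted p under 0.05 in edgeR (4 higher at an unadjusted p under 0.05, 1 by DESeq2 and 0 by limma-voom). Of all genes tested, 4.74% were called higher and 7.28% lower.

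Among 7 podocyte transcription factors besides Wt1, none was called (1 higher at an unadjusted p under 0.05, and 0 by DESeq2 and by limma-voom). The shares over all genes were 4.74% higher and 7.28% lower. Lmx1b, a LIM homeodomain factor, and Foxc2, a forkhead factor, were 2.17 and 2.09 times as high in kidney 4 as in the next library. Foxc1 had a log2 fold change of 0.04 (adjusted p = 0.943, edgeR), and -0.22 (adjusted p = 0.644) without kidney 4. Of the glomerular basement membrane collagens, Col4a4 (-0.13, adjusted p = 0.567) and Col4a3 (0.17, adjusted p = 0.564, edgeR) were not called, and kidney 4 was at 1.01 and 1.17 times the next highest library. Without it their log2 fold changes were -0.23 and 0.03 (adjusted p = 0.301 and 0.945). Col4a5, a further one, was not called either, but its log2 fold change was 0.61 (adjusted p = 0.0588, edgeR). Without kidney 4 this was 0.62 (adjusted p = 0.0994). Col4a5 had 67.2, 44.6 and 42.1 CPM in WT and 82.8, 73.6 and 78.2 CPM in Trpm2-/- kidneys. All its Trpm2-/- values lay above all its WT values (16.7% of all genes tested). Vegfa, which podocytes release for the glomerular endothelium and which tubules make as well, had a log2 fold change of -0.06 (adjusted p = 0.90, edgeR), and -0.45 (adjusted p = 0.0957) without kidney 4. Kirrel2, Kirrel3 and Trpc6 were not tested, with at most 15 counts in any library.

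**Figure D3:**
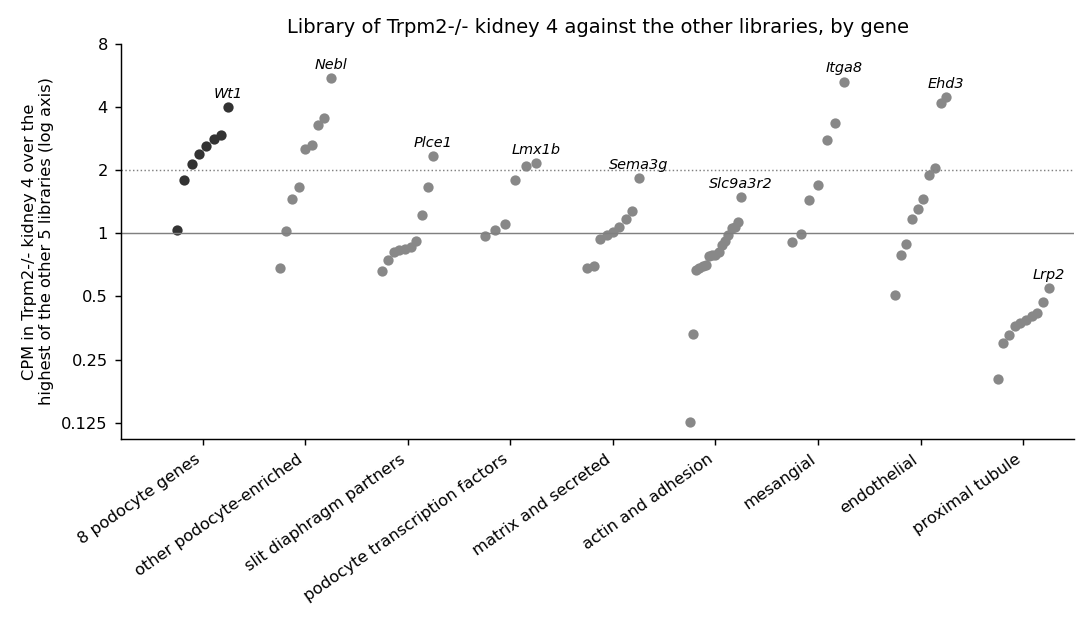
Ratio of the CPM in Trpm2-/- kidney 4 to the highest of the other 5 libraries (log axis) for tested genes of 9 lists, sorted within each list, with the top plotted gene of each list named. The solid line marks equality and the dotted line a ratio of 2. Podocyte genes reach 4.02 (Wt1) and 5.49 (Nebl), mesangial Itga8 5.30 and endothelial Ehd3 4.49, whereas every proximal tubule gene lies below 1.

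Most, but not all, markers of the mesangial and endothelial lists were highest in kidney 4, as the podocyte genes were. Ehd3, an endocytic protein typical of glomerular endothelium, had 10.8, 7.84 and 9.45 CPM in WT and 8.08, 9.63 and 48.4 CPM in Trpm2-/- kidneys, and Kdr, the VEGF receptor, had 58.9 CPM in kidney 4 against at most 14.1 CPM elsewhere. Itga8, an integrin of mesangial cells, had 1.73, 1.09 and 1.1 CPM in WT and 2.94, 1.57 and 15.6 CPM in Trpm2-/- kidneys. Of 7 mesangial and 10 endothelial markers, 5 and 7 were highest in kidney 4 (19.2% of all genes). In each list 3 lay at least 2-fold above every other library (0.879% of all genes). The rest were not highest there, with ratios to the highest other library of 0.997 (Gata3), 0.91 (Serpine2), 0.89 (Flt1), 0.79 (Tie1) and 0.51 (Plat). The centred mean of the endothelial list was -0.54 and -0.43 in Trpm2-/- kidneys 1 and 2, below the -0.24 to 0.12 of WT. The summed level of the mesangial list was 119 to 127 CPM in WT, 180 and 179 CPM in Trpm2-/- kidneys 1 and 2, and 249 CPM in kidney 4. Without Serpine2, a protease inhibitor with 59.1 to 75.2 CPM in WT and 121 to 133 CPM in Trpm2-/- kidneys, the sums were 51.8 to 60.0 CPM in WT, 54.6 and 45.5 CPM in Trpm2-/- kidneys 1 and 2, and 127 CPM in kidney 4. For the endothelial list the sums were 326 to 379 CPM in WT and 914 to 1146 CPM in Trpm2-/- kidneys, of which Plat, a plasminogen activator that injured tubules also make, was the largest part with 519 to 1026 CPM. No marker of these lists had 0 counts in all libraries. In whole-kidney RNA, more cells of a type and more RNA per cell cannot be told apart, and the share of glomerulus in each piece of tissue was not measured, so its part in the podocyte values was not tested.

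**Figure D4:**
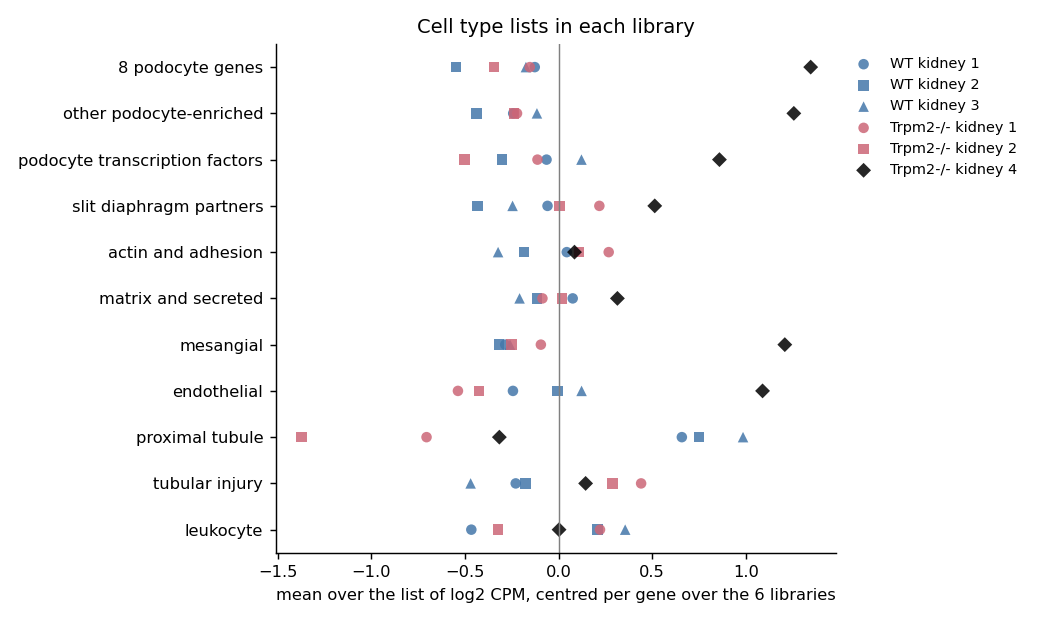
Mean over each cell type list of log2 CPM, centred per gene over the 6 libraries, for WT (blue) and Trpm2-/- (red) kidneys, with Trpm2-/- kidney 4 in black. Kidney 4 is at 1.35 for the 8 podocyte genes, 1.26 for other podocyte-enriched genes, 1.21 for mesangial and 1.09 for endothelial markers, and it lies with the other Trpm2-/- kidneys below the WT kidneys for proximal tubule markers.

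Tubular markers as a set did not place kidney 4 above the other 5 libraries. It was highest for 0 of 10 proximal tubule markers and 1 of 10 tubular injury genes, beside 19.2% of all genes tested. All 10 proximal tubule markers were called lower in Trpm2-/- kidneys (7.28% of all genes), and 8 without kidney 4 (6.34% of all genes). Their summed level was 4896 to 6257 CPM in WT, 2076 and 1920 CPM in Trpm2-/- kidneys 1 and 2, and 2555 CPM in kidney 4. Slc27a2 was the largest part, with 1200, 1380 and 1407 CPM in Trpm2-/- kidneys 1, 2 and 4. The centred mean of the list was -0.71, -1.37 and -0.32 in these kidneys, against 0.66 to 0.99 in WT. Kidney 4 was thus below WT but above the other Trpm2-/- kidneys. Its ratio to their mean ranged from 0.92 (Slc5a12) to 3.38 (Slc22a8). The sums of 10 tubular injury genes, such as Havcr1 (KIM-1), were 18448 to 20576 CPM in WT and 20941 to 28969 CPM in Trpm2-/- kidneys, with kidney 4 at 23124 CPM. Spp1 was the largest part, with 11457 to 13304 CPM in WT and 11416 to 18489 CPM in Trpm2-/- kidneys. The centred mean of log2 CPM, which weighs each injury gene alike, was -0.47 to -0.18 in WT. It was 0.44 and 0.29 in Trpm2-/- kidneys 1 and 2, and lower, 0.14, in kidney 4. Havcr1 had 1796, 1902 and 1554 CPM in Trpm2-/- kidneys 1, 2 and 4. Leukocyte markers, relevant to Ptpro, summed to 142 to 159 CPM in WT and 147 to 199 CPM in Trpm2-/- kidneys, with 147 CPM in kidney 4. Cd68 (54.3 to 71.7 CPM) and Cd14 (33.4 to 103 CPM) were the largest parts. Ptprc had 1.79, 3.08 and 3.37 CPM in WT and 5.08, 3.69 and 5.23 CPM in Trpm2-/- kidneys, without overlap (16.7% of all genes). It was not called (log2 fold change 0.76, adjusted p = 0.164, edgeR). Of 7 tested markers, 3 had log2 fold changes above 0 and 4 below, and 1, Ptprc, was highest in kidney 4. Their part in the Ptpro values was not tested. Urothelial markers were high in WT kidney 1 alone (36.0 CPM, against 6.18 to 10.5 CPM in the other 5). CPM values are relative to a library total, here scaled by TMM. Lower tubular transcripts can raise the values of other genes as far as this scaling leaves such a shift. How much of the podocyte values this accounts for was not tested.

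Genes with the pattern most like the 8 were sought by Pearson correlation of log2 CPM with their mean profile over the 6 libraries, which share one scaling and in which kidney 4 carries most of the variation. The 8 genes correlated with this mean, of which each is a part, between 0.59 (Cd2ap) and 0.98 (Wt1). Among other genes of at least 1 CPM the 10 closest had correlations of 0.98 to 1.00. They were Zfp119a, Ptn, Cacybp, Shisa3, Zfp420, St6galnac2, Nebl, Ntng2, Slc16a5 and Rab3b. Closeness did not imply an equal size of difference, as Cacybp went only from 44.8 to 47.2 CPM in the other 5 libraries to 53.4 CPM in kidney 4, while Shisa3 went from 3.08 to 5.30 CPM to 19.8 CPM. A correlation above 0.9 was found for 6 of 53 other podocyte genes, 3 of 7 mesangial and 2 of 10 endothelial markers, and for 1.24% of all genes tested.

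Promoter sequence of the podocyte genes was looked up as a description only. RefSeq promoter windows (GRCm38.p6) were found for 4 of the 8 genes, and only that of Ptpro lies outside annotated exons over the 250 bases before its start (chr6:137252049-137252298, plus strand), so this is the one printed, 5′ to 3′.
Ptpro: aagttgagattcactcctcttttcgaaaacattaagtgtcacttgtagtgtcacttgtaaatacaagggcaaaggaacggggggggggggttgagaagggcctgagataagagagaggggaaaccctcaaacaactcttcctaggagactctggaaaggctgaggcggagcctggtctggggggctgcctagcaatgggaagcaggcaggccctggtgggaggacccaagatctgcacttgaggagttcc
It holds neither GCGTGGG, the core bound by WT1 and EGR zinc fingers, nor TAATTA, the core of LIM homeodomain factors such as LMX1B, on either strand, and therefore has no capitals. The same was so for the windows of Nphs1, Kirrel and Cd2ap. Of all 32851 windows of this length, 4.3% hold the first motif and 4.84% the second, and the absence of these letters in a short window says nothing about binding of either factor.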

How the data were processed

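Kidney RNA from 3 WT and 3 Trpm2-/- mice was sequenced after Trizol extraction and NEBNext Ultra II library preparation. The submitters' processing notes name HISAT2, StringTie and mm9. However, positions in the files equal those of GRCm38 for 98.3% of 54409 genes shared with the GENCODE mouse annotation, release 21, and GRCm38 is used here. The authors deposited whole-number counts per gene, without normalization, and FPKM values computed from them with gene length and a library total. Counts were filtered with filterByExpr, scaled by TMM and tested for genotype alone by two-sided quasi-likelihood F tests (edgeR 4.0.16, R 4.3.3), with Benjamini-Hochberg adjustment over 15816 genes (common dispersion 0.0445). Values after ± are standard errors for log2 fold changes, obtained as the size of the change over the root of its F statistic, and SDs elsewhere. Between libraries of a group, chi-square per degree of freedom was 13.5 to 36.7, so no library was a copy of another. Correlations used log2 CPM with a prior count of 2. Alternatives were DESeq2 1.42.0, limma 3.58.1 (voom, log2(FPKM + 1) and log2(FPKM + 0.1)), other normalizations and filters, removal of mitochondrial genome genes, a replicate block and leaving out each kidney.

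The 8 genes and all lists were chosen with earlier results of these data known. Named list genes are those that passed, up to 8 a list, and the 2 most abundant that did not. The 10 genes of closest pattern exclude predicted names. Nebl, Pla2r1, Thsd7a, Robo2, Srgap1, Lmx1b, Foxc2, Slc9a3r2, Col4a3, Col4a5 and the markers of other cells were named after their values were seen. No set test was run. Some genes of the lists are counted in the totals but not reported singly here.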

Additional observations from a re-analysis of the deposited data

How the results depend on the processing

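Of the 8 podocyte genes, the number called higher was 1 with all kidneys and stayed 1 under both other normalizations, a filter of at least 1 CPM in 3 samples, limma-voom, both limma fits of FPKM and removal of mitochondrial genome genes. It was 6 with no filter on low counts, 3 with the DESeq2 Wald test, 3 under the rule of the methods and 0 with the replicate block, and it ranged from 0 (without WT kidney 2 or 3, or Trpm2-/- kidney 1 or 4) to 4 (without Trpm2-/- kidney 2). The number called lower was 0 in every fit. Their median log2 fold change of 0.73 was 0.44 to 0.79 over the other settings, 0.18 with the replicate block, and 0.13 (without Trpm2-/- kidney 4) to 1.1 (without Trpm2-/- kidney 2) when a kidney was left out. Of the 56 other podocyte genes, 8 were called higher, against 18 with no filter, 4 with limma on log2(FPKM + 1) and 4 on log2(FPKM + 0.1), 2 with the replicate block, and 0 (without WT kidney 2 or 3) to 7 when a kidney was left out, with 4 called without Trpm2-/- kidney 1. Called lower were 0, with 1 under no filter and 0 to 1 when a kidney was left out. The causes of these shifts were not tested.

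Leaving out a kidney moved the log2 fold change of Nphs1 between -0.23 and 1.16, of Podxl between -0.30 and 0.87 and of Ptpro between -0.88 and 1.1, each below 0 only without Trpm2-/- kidney 4. Numbers 1 and 2 occur in both genotypes, but nothing in the labels pairs these kidneys, and the deviations of same-numbered kidneys from their genotype means correlated by 0.06 and -0.01. In the replicate block only these 2 pairs carry the comparison, so Trpm2-/- kidney 4 has no weight, and Podxl (-0.20) and Ptpro (-0.89) were below 0. The comparison rests on 3 kidneys a genotype, with 44 to 5452 counts a library on these genes. Whether the spread between kidneys or depth limits it more was not tested.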

Other observations

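The endothelial markers changed their picture when Trpm2-/- kidney 4 was set aside, an exclusion chosen with the values known. Across all 6 kidneys 1 of 10 was called higher (4.74% of all genes) and 0 lower (7.28% of all genes). The gene called was Plat, which rose by 2.29 on the log2 scale (adjusted p = 0.00298, edgeR). Without kidney 4, Emcn, Pecam1 and Tie1 were called lower in Trpm2-/- kidneys, with log2 fold changes of -1.86, -0.93 and -1.24 (adjusted p = 0.00192, 0.0387 and 0.0300, edgeR), and Plat was called higher at 2.53. That is 3 of 10 lower and 1 of 10 higher, beside 6.34% and 4.81% of all genes in that fit. Emcn encodes endomucin, a sialoprotein of capillary endothelium, and had 26.1, 21.2 and 24.0 CPM in WT and 7.28, 5.67 and 34.2 CPM in Trpm2-/- kidneys. The log2 fold change over all kidneys was -0.60 (adjusted p = 0.526, edgeR). The 2 Trpm2-/- kidneys with mean podocyte levels in the WT range thus had the lowest Emcn, and kidney 4 the highest.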
